A study of Mus musculus with 15 samples.

Results

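RNA from fat cells held in forskolin for 3 days was set against RNA from the same kind of cells held in it for 4 h. The cells were MAP cells, a line of immortalized adipocyte progenitors from mouse, and all libraries came from cultures turned into adipocytes before treatment. Confluent cells spent 2 days in insulin, isobutylmethylxanthine, dexamethasone and rosiglitazone and another 2 days in insulin and rosiglitazone, so every group, vehicle included, had seen a phosphodiesterase inhibitor and a PPARγ agonist earlier. At day 7 to 8 they received forskolin for 3 days (FSK3D), 1 day (FSK1D) or 4 h (FSK4h), rosiglitazone for 3 days (Rosi3D) or vehicle. Each of the 5 groups had 3 libraries, and the comparison uses the 3 FSK3D and the 3 FSK4h libraries, 6 of 15 in all. The members of the comparison are the genes that passed an expression filter, 14421 of 24421 in the table. The groups model a single immortalized line in culture, the sources used here give neither the forskolin dose nor the time at which vehicle cells were harvested, and they do not say whether replicate libraries are separate cultures. The p-values therefore measure the spread between libraries, which may be technical. Cells with 3 days of forskolin were also 3 days further in culture than at the start of treatment, and the duration of forskolin cannot be told apart from that time.

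Forskolin activates adenylyl cyclase directly, without a receptor, and raises cyclic AMP (cAMP). In fat cells cAMP acts mainly through protein kinase A, which starts lipolysis and phosphorylates the transcription factor CREB. CREB switches on early genes within hours, many of which encode factors, phosphodiesterases and kinases that damp the signal again. Held for longer, the same signal is known for browning, in which white or beige fat cells gain mitochondria and the uncoupling protein Ucp1. A comparison of 3 days with 4 h shows which RNA levels differed between these times. It does not by itself tell a late rise from a return after an early fall, so vehicle levels are given beside many genes.

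Total counts were 14056200 to 31079564 in FSK3D and 27514310 to 39968932 in FSK4h. On principal components of these 6 libraries the first, with 76.9% of the variance, separated the groups, and the second, with 7.86%, set the shallowest library, FSK3D S11, apart from the other FSK3D libraries. The ribosomal RNA precursor Rn45s took 4.77% ± 0.890 of counts in FSK3D and 8.68% ± 0.175 in FSK4h (SD, n = 3 each), and after scaling its log2 fold change was -1.04 (SE 0.12, edgeR adjusted p = 6.32e-06). The libraries had been depleted of ribosomal RNA. Markers of mature adipocytes were abundant: the summed level of 24 such genes was 28148 to 29768 CPM in FSK3D and 18266 to 20559 CPM in FSK4h. Levels here are CPM, counts relative to the library total after scaling by the trimmed mean of M values (TMM), and means are given ± SD (n = 3).

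The call covered most of the transcriptome. At an adjusted p under 0.05 (edgeR quasi-likelihood test, Benjamini-Hochberg over all genes tested) 9881 of 14421 genes, 68.5%, differed between FSK3D and FSK4h. Of these 5045 (35% of genes tested) were higher in FSK3D and 4836 (33.5%) were lower. By at least 2-fold 1518 (10.5%) were higher and 1147 (7.95%) lower, and for 10138 genes (70.3%) the 3 FSK3D libraries did not overlap the 3 FSK4h libraries. Every list count below is to be read against these shares, which are not repeated for every list. The lists were chosen with earlier results of these data known. The split of directions depends on the scaling. With library size alone 6558 genes were higher and 3523 lower, so 65.1% of calls were higher rather than 51.1%, and the median log2 fold change of all genes was 0.20 rather than 0.03. Of the 8568 genes called with both scalings, 0 changed direction. Fold changes below are relative to the TMM-scaled level, as log2 of FSK3D over FSK4h ± standard error (SE), and in these bulk samples a change in the number of cells of a kind and a change in RNA per cell cannot be told apart.

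**Figure D1:**
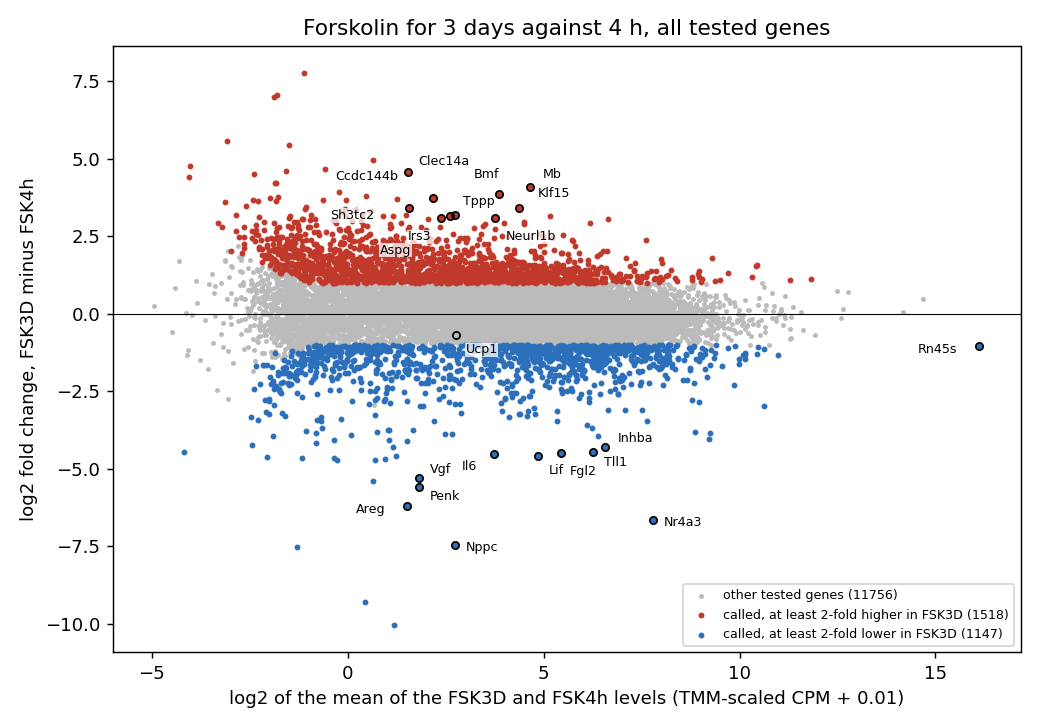
Log2 fold change of each tested gene, FSK3D minus FSK4h, against log2 of its mean level in both groups (TMM-scaled CPM plus 0.01). Red and blue points are genes called and at least 2-fold higher (1518) or lower (1147) in FSK3D, and labelled genes are those with the greatest changes among well-expressed genes together with Ucp1 and Rn45s. That rule picked genes by these fold changes, and its genes lie at -4.31 to -7.47 where they fell and at 3.08 to 4.58 where they rose. Some rest on few counts, with 5 to 12 in FSK3D for Nppc, Areg, Penk and Vgf and 20 in FSK4h for Clec14a.

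The genes furthest below their 4 h level were early signals and secreted peptides. Among called genes with a mean of at least 5 CPM in the higher group and no overlap between libraries, the 10 with the lowest fold changes were Nppc, Nr4a3, Areg, Penk, Vgf, Lif, Il6, Fgl2, Tll1 and Inhba. Of these, 9 encode secreted proteins or peptide precursors and 1, Nr4a3, a transcription factor. Nr4a3 (chromosome 4, 48045153 to 48086447, plus strand, GRCm38), an orphan nuclear receptor induced by cAMP, stood at 4.00, 5.55 and 3.85 CPM in FSK3D, against 414, 458 and 433 CPM in FSK4h. The log2 fold change was -6.66 ± 0.18 (edgeR adjusted p = 1.02e-11), in a gene that the rule picked for its fold and for groups that do not overlap. In vehicle the mean was 2.18 CPM, so the FSK3D level was still above it (0.97 ± 0.30, edgeR adjusted p = 0.0179 for FSK3D against vehicle).

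Nppc (chromosome 1, 86666291 to 86670571, minus strand), the precursor of C-type natriuretic peptide, had 5 counts over the FSK3D libraries, against 1177 over the FSK4h libraries. Its level in FSK3D was thus 0.535% of that in FSK4h, with an exact binomial 95% interval of 0.0518% to 1.55%. Areg, which encodes the EGF receptor ligand amphiregulin, had 5 counts in FSK3D and 495 in FSK4h, or 1.27% of the 4 h level (0.123% to 3.72%). Both genes were nearly absent from vehicle, each at 0.0245 CPM. Penk, the precursor of enkephalins, stood at 2.05% of its 4 h level (0.661% to 4.84%), and its 10 counts in FSK3D all came from library S12. Without S12 its fitted log2 fold change was -10.6, but that rests on 0 counts in FSK3D and is no measure of size. Vgf, the precursor of neuroendocrine peptides, stood at 2.45% (0.894% to 5.402%). Such intervals cover counting error only. With so few read pairs the fitted folds moved with single FSK3D libraries. The log2 fold change of Vgf was -5.31 with all libraries and -6.26 without FSK3D S10. That of Areg was -6.20 with all libraries, -6.85 without FSK3D S10, -5.41 without FSK3D S12 and -5.30 with all libraries thinned to the smallest. That of Penk was -5.60 with all libraries and -5.01 without FSK3D S10.

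Lif and Il6 encode cytokines that signal through the shared receptor gp130. Lif was at 2.77, 1.99 and 2.10 CPM in FSK3D, against 56.3, 56.9 and 52.4 CPM in FSK4h (-4.58 ± 0.14, edgeR adjusted p = 3.07e-24). Il6 was at 1.47, 0.959 and 0.922 CPM in FSK3D, against 25.7, 24.95 and 26.5 CPM in FSK4h (-4.51 ± 0.21). At 3 days Lif was near its vehicle mean of 2.78 CPM, whereas Il6 stayed above its vehicle mean of 0.217 CPM (2.39 ± 0.41 for FSK3D against vehicle, edgeR adjusted p = 1.14e-05). Inhba, which encodes the subunit of activin A, was at 9.42, 9.87 and 8.30 CPM in FSK3D, against 179.7, 183 and 177 CPM in FSK4h, and so was below its vehicle mean of 17.4 CPM at 3 days and above it at 4 h. Tll1, a tolloid-like metalloprotease that processes matrix and growth factor precursors, averaged 6.72 ± 0.296 CPM in FSK3D and 148 ± 8.86 CPM in FSK4h (-4.46 ± 0.096). Fgl2, a secreted fibrinogen-like protein, averaged 3.69 ± 0.388 CPM in FSK3D and 82.7 ± 6.29 CPM in FSK4h (-4.50 ± 0.11), with 9.38 CPM in vehicle.

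Immediate early genes, transcription factors among them, were lower throughout. Of 31 cAMP-induced immediate early genes tested, 31 were lower in FSK3D and 0 higher, 24 of them by at least 2-fold, with a median log2 fold change of -1.78. Of all genes tested 33.5% were lower, 7.95% by at least 2-fold, and the median was 0.03. The list median was 1.60 for FSK4h against vehicle and -0.14 for FSK3D against vehicle, comparisons that share libraries with this one. Nr4a1, the paralog of Nr4a3, was at 23.4, 24.9 and 25.8 CPM in FSK3D, against 152, 153 and 141 CPM in FSK4h (-2.59 ± 0.083, edgeR adjusted p = 1.82e-20). No library of either group came near the other, and the vehicle mean was 11.5 CPM. Ier3, an early gene tied to cell survival, averaged 10.3 ± 0.535 CPM in FSK3D and 157 ± 17.1 CPM in FSK4h (-3.94 ± 0.094). Fosb, an AP-1 subunit, had 22 counts in FSK3D and 485 in FSK4h, 5.71% of the 4 h level (2.82% to 10.4%).

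Promoter sequences are shown for 4 genes whose levels fell, with the letters of the element that CREB is known to bind. The element is TGACGTCA and its core site is TGACG, each searched on both strands, and a full element also holds the core site. The sequences are RefSeq's, on GRCm38.p6, from 250 bases before to 50 after the annotated start, written 5′ to 3′ in the direction of the gene, with each core site (TGACG, or CGTCA where it lies on the other strand) in capitals. Nr4a3, Areg and Nr4a1 were chosen for the number of core sites and Ucp1 as the browning gene, after the values were seen.
Nr4a3 (chr4:48045055-48045354, plus strand): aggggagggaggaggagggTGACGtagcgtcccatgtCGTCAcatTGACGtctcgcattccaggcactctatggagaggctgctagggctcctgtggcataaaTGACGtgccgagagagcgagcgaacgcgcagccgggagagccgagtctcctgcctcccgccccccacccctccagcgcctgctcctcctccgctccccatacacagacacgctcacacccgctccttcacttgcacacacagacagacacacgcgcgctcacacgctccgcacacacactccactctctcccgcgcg
Areg (chr5:91139349-91139648, plus strand): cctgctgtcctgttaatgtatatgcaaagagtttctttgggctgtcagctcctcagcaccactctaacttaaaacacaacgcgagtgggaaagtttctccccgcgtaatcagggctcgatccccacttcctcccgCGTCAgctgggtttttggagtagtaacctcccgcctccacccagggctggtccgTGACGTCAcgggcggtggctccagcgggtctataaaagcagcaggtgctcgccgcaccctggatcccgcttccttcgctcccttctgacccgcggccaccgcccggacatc
Nr4a1 (chr15:101266596-101266895, plus strand): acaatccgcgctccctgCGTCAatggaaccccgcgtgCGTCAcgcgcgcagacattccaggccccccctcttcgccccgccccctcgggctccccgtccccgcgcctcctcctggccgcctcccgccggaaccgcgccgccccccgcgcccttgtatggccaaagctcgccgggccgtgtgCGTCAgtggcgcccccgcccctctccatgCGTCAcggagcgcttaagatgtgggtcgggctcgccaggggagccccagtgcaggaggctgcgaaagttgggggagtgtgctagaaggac
Ucp1 (chr8:83290098-83290397, plus strand): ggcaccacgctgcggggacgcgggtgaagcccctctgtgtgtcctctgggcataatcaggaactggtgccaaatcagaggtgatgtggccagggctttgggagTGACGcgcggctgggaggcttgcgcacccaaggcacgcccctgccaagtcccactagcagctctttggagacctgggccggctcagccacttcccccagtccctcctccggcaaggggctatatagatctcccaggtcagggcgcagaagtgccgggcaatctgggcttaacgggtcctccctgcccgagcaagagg
Nr4a3 and Nr4a1 each have 4 core sites and no full element in this window. Areg has the full element, starting at position -61 counted with the annotated start as 0, and 1 more core site at -115, and Ucp1 has 1 core site at -147. Of 17 lower genes among the most changed and the preset ones, 13 had a RefSeq promoter and 6 of these were found to hold a core site. Crem, one of the 17, was left out of the search for sites, so 6 is a lower bound.

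Over all lower genes the element was about as frequent as over all genes tested. It lay in 3.40% of the promoters of genes at least 2-fold lower in FSK3D (36 of 1059), in 2.07% of those of genes at least 2-fold higher (28 of 1354) and in 2.94% of those of all genes tested (400 of 13589). The core site lay in 30.1%, 22.2% and 29.7% of these promoters in the same order. For lower genes both shares were thus close to those of all genes, while for higher genes they were lower. The element TCAAGGTCA, bound by the estrogen-related receptors that drive mitochondrial genes, lay in 0.472% of promoters of lower genes (5), in 0.148% of those of higher genes (2) and in 0.258% of all (35). These are counts of letters in a short window, not of bound sites.

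**Figure D2:**
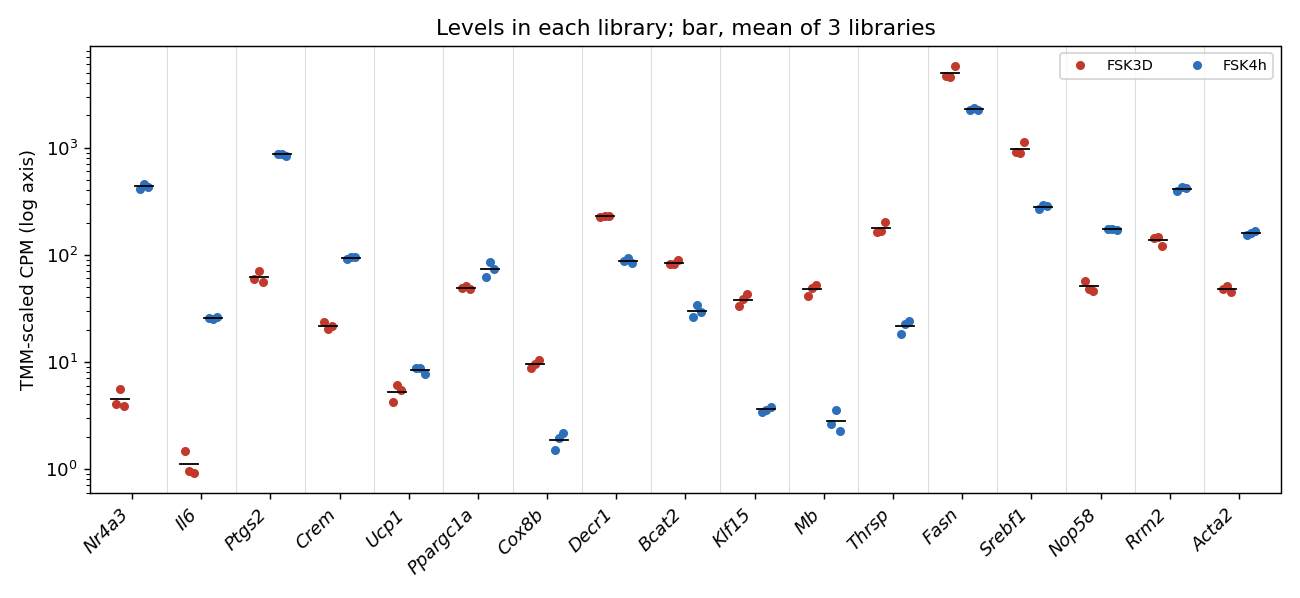
Level of 17 genes in each library on a log axis (TMM-scaled CPM), with FSK3D (red) left of FSK4h (blue) and a bar at the mean of 3 libraries. The groups do not overlap in any gene shown, as in 70.3% of all genes tested. Their distance ranges from less than 2-fold in Ucp1 and Ppargc1a to about 100-fold in Nr4a3.

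Genes of the cAMP pathway itself went both ways. In a list of 39 genes from receptors to CREB coactivators, 38 were tested, of which 11 were higher in FSK3D, 19 lower and 8 not called (median -0.20). Of all genes tested 35% were higher and 33.5% lower. With library size alone 13 of the listed genes were higher and 16 lower (median -0.019). Among them Sik1, a salt-inducible kinase that CREB induces and that restrains the CREB coactivators, averaged 33.9 ± 1.64 CPM in FSK3D and 204 ± 12.2 CPM in FSK4h (-2.59 ± 0.067). Crem, whose short form ICER represses CREB targets, averaged 21.8 ± 1.81 CPM in FSK3D and 93.8 ± 2.32 CPM in FSK4h (-2.10 ± 0.076). Adcy3, an adenylyl cyclase of adipocytes, was at 40.2, 39.9 and 35.2 CPM in FSK3D, against 128, 127 and 132 CPM in FSK4h (-1.75 ± 0.06). All 3 were below the 4 h level and still above vehicle, where their means were 21.5, 10.7 and 13.9 CPM. In the other direction went Pde7b, a cAMP-specific phosphodiesterase, at 20.6, 17.7 and 19.3 CPM in FSK3D, against 2.28, 2.87 and 3.03 CPM in FSK4h (2.83 ± 0.17, edgeR adjusted p = 9.31e-16). Its vehicle mean was 5.59 CPM, between the 2.

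Feedback genes of the MAP kinase cascade were lower together, 12 of 14 tested MAP kinase phosphatase and Sprouty genes in FSK3D and 0 higher (median -1.08). Dusp5, a nuclear phosphatase of ERK, averaged 4.92 ± 0.293 CPM in FSK3D and 43.9 ± 2.56 CPM in FSK4h (-3.14 ± 0.12). Dusp6, its cytoplasmic counterpart, averaged 5.33 ± 1.01 CPM in FSK3D and 24.4 ± 1.42 CPM in FSK4h (-2.20 ± 0.14), and Spry2, a Sprouty inhibitor of receptor tyrosine kinase signalling, averaged 15.02 ± 1.87 CPM in FSK3D and 46.5 ± 3.28 CPM in FSK4h (-1.65 ± 0.089). All 3 were also below their vehicle means of 8.57, 8.85 and 19.8 CPM.

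Inflammatory genes were mostly lower. Of 24 cytokine and chemokine genes tested 17 were lower in FSK3D and 3 higher (median -0.93). Ptgs2 (chromosome 1, 150100031 to 150108227, plus strand), the inducible cyclooxygenase of prostaglandin synthesis, was at 59.7, 71.1 and 55.5 CPM in FSK3D, against 870.1, 879.9 and 845 CPM in FSK4h (-3.81 ± 0.15, edgeR adjusted p = 5.10e-10). Its vehicle mean of 137 CPM lay between the 2 groups. The 3 members that were higher were Cxcl5, a neutrophil chemokine named by the preset rule, and Lcn2 and C3, an iron-siderophore carrier and a complement protein chosen after their values were seen. C3 averaged 2093 ± 209 CPM in FSK3D and 710.0 ± 6.64 CPM in FSK4h (1.56 ± 0.057), and Lcn2 averaged 5.63 ± 1.93 CPM in FSK3D and 1.97 ± 0.116 CPM in FSK4h (1.56 ± 0.23). Cxcl5 was low in both groups, at 0.816, 1.37 and 1.08 CPM in FSK3D, against 0.220, 0.243 and 0.432 CPM in FSK4h (1.84 ± 0.47, edgeR adjusted p = 8.42e-04).

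Secreted hormones and growth factors went both ways, 10 higher and 12 lower of 27 tested, beside 35% and 33.5% of all genes. The median was -0.22, and -0.044 with library size alone. The lower end is that of Nppc, Areg and Inhba above. Adipoq, the gene of adiponectin, was slightly higher, at 1759.6, 1787 and 1791 CPM in FSK3D, against 1427, 1528 and 1439 CPM in FSK4h (0.28 ± 0.046, edgeR adjusted p = 2.07e-06). Lep, the gene of leptin, was barely detected, with 6 counts over the FSK3D libraries and 0 over the FSK4h libraries, beside 44 in vehicle. No fold change is given for it, since its 6 counts are at the floor of 3 read pairs that a count of 0 allows, and the call was lost on leaving out any 1 of 5 of the 6 libraries. Lep is nonetheless counted among the 10 higher members.

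Genes of the unfolded protein response, which answers load on the endoplasmic reticulum, were mostly lower. Of 25 unfolded protein response genes 17 were lower in FSK3D and 5 higher (median -0.36, and -0.18 with library size alone). Hspa5, the main chaperone of the endoplasmic reticulum, was at 638, 624 and 666 CPM in FSK3D, against 1605, 1567 and 1650.0 CPM in FSK4h (-1.32 ± 0.041, edgeR adjusted p = 4.22e-24). Manf and Creld2, secreted proteins of the same response, both differed by -1.41 on the log2 scale (SE 0.065 and 0.069). Their FSK3D means of 27.9 and 28.8 CPM and that of Hspa5 lay near or below the vehicle means of 35.2, 34.8 and 633 CPM. Ddit3, the stress factor CHOP, went the other way, averaging 69.4 ± 6.14 CPM in FSK3D and 47.7 ± 0.805 CPM in FSK4h (0.55 ± 0.065).

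ATF4 targets, which answer amino acid shortage and other stresses, and the aminoacyl-tRNA synthetases had 22 lower and 7 higher of 31 tested (median -0.36, and -0.17 with library size alone). Slc7a1, a transporter of cationic amino acids, averaged 73.04 ± 4.44 CPM in FSK3D and 264 ± 8.88 CPM in FSK4h (-1.85 ± 0.057), and Slc7a5, a transporter of large neutral amino acids, averaged 107 ± 7.57 CPM in FSK3D and 333 ± 11.9 CPM in FSK4h (-1.64 ± 0.062). Eprs, the synthetase that charges the tRNAs of glutamate and proline, averaged 317 ± 11.04 CPM in FSK3D and 786 ± 3.82 CPM in FSK4h (-1.31 ± 0.044). Trib3, a pseudokinase that restrains ATF4 and insulin signalling, was higher, at 59.8, 64.4 and 69.9 CPM in FSK3D, against 24.5, 28.6 and 25.3 CPM in FSK4h (1.31 ± 0.089). Trib3 had the greatest rise in this list, and its vehicle mean was 17.4 CPM.

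Of 20 NRF2 and antioxidant genes 11 were lower and 5 higher (median -0.23), beside 33.5% and 35% of all genes. With library size alone 8 were lower and 7 higher (median -0.056). Srxn1, which repairs oxidized peroxiredoxins, was at 122, 114 and 125 CPM in FSK3D, against 925, 871 and 828 CPM in FSK4h (-2.86 ± 0.051, edgeR adjusted p = 1.15e-30). This is a level near that of vehicle, 112 CPM. Hmox1, heme oxygenase, averaged 122 ± 8.33 CPM in FSK3D and 393 ± 43.5 CPM in FSK4h (-1.68 ± 0.085), and Gclc, of glutathione synthesis, averaged 40.05 ± 3.88 CPM in FSK3D and 96.1 ± 6.27 CPM in FSK4h (-1.25 ± 0.065). Cat, the peroxisomal catalase, was higher in all 3 FSK3D libraries, at 699.6, 702 and 693 CPM, against 283, 312 and 316 CPM in FSK4h (1.20 ± 0.053).

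Hypoxia targets were divided, 9 lower and 5 higher of 21 (median -0.20), beside 33.5% and 35% of all genes. With library size alone 9 were lower and 9 higher (median -0.024). Slc2a1, the basal glucose transporter GLUT1, averaged 149 ± 9.07 CPM in FSK3D and 655 ± 49.4 CPM in FSK4h (-2.14 ± 0.062). Adm, the vasodilator peptide adrenomedullin, averaged 5.24 ± 0.517 CPM in FSK3D and 18.4 ± 3.68 CPM in FSK4h (-1.81 ± 0.13), and Hk2, hexokinase 2, averaged 141 ± 8.52 CPM in FSK3D and 426 ± 33.6 CPM in FSK4h (-1.60 ± 0.08). Pdk1, a kinase that turns pyruvate dehydrogenase off, was higher at 385, 427 and 416 CPM in FSK3D, against 167, 184 and 163 CPM in FSK4h (1.26 ± 0.06). Over all 4 groups of the forskolin course the mean of Pdk1 was 96.8 CPM in vehicle, 171 at 4 h, 329.7 at 1 day and 409 at 3 days.

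**Figure D3:**
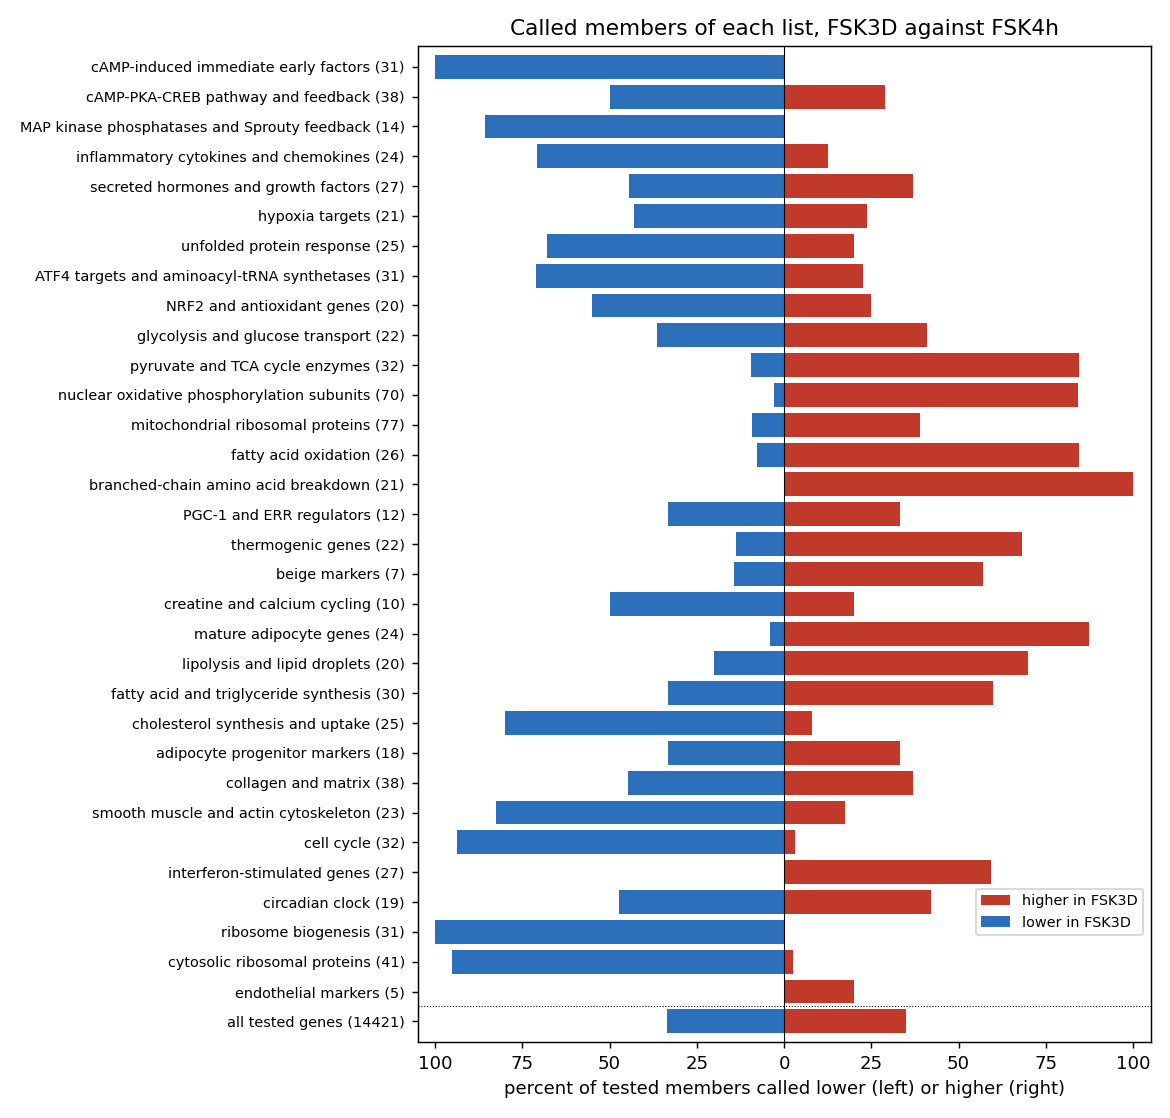
Share of the tested members of each list called higher (red, right) or lower (blue, left) in FSK3D against FSK4h at an adjusted p under 0.05, with the number tested in parentheses and all tested genes for comparison. Mitochondrial and amino acid breakdown lists extend to the right and early, cell cycle and ribosome lists to the left, while 35% of all genes were higher and 33.5% lower.

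Genes of mitochondrial fuel use were higher in FSK3D across several lists. Of 32 pyruvate and TCA cycle genes 27 were higher and 3 lower (median 0.46), of 70 nuclear subunits of oxidative phosphorylation 59 were higher and 2 lower (median 0.35), and of 26 fatty acid oxidation genes 22 were higher and 2 lower (median 0.87). Branched-chain amino acid breakdown had 21 higher of 21 (median 0.98). These shares stand beside 35% of all genes higher and a median of 0.03. The changes of the respiratory subunits were small, between -0.71 and 0.92, and none reached 2-fold. With library size alone the counts of higher genes in these 4 lists were 29, 65, 23 and 21.

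Within fatty acid oxidation, Decr1, the reductase needed for unsaturated fatty acids, was at 227, 229 and 231 CPM in FSK3D, against 87.1, 93.2 and 83.03 CPM in FSK4h (1.38 ± 0.058, edgeR adjusted p = 7.36e-20). The FSK3D libraries were within 5 CPM of each other and all above the FSK4h libraries. Ehhadh, a peroxisomal enzyme of the same pathway, averaged 24.7 ± 1.45 CPM in FSK3D and 8.42 ± 1.90 CPM in FSK4h (1.58 ± 0.16), and Acad11, an acyl-CoA dehydrogenase, averaged 149 ± 8.50 CPM in FSK3D and 65.4 ± 4.11 CPM in FSK4h (1.19 ± 0.06). Cpt1a, the liver form of the transferase by which fatty acids enter mitochondria, went against the list at 109, 107 and 97.2 CPM in FSK3D, against 239, 209 and 227 CPM in FSK4h (-1.11 ± 0.054). Its vehicle mean was 96.97 CPM.

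Branched-chain amino acid breakdown starts with Bcat2, the mitochondrial transaminase. Bcat2 was at 82.1, 81.2 and 89.6 CPM in FSK3D, against 26.01, 33.6 and 28.9 CPM in FSK4h (1.52 ± 0.091, edgeR adjusted p = 2.82e-12). Ppm1k, the phosphatase that switches the branched-chain ketoacid dehydrogenase on, averaged 38.7 ± 1.81 CPM in FSK3D and 13.99 ± 1.32 CPM in FSK4h (1.47 ± 0.086). Pcca, a subunit of propionyl-CoA carboxylase at the end of the pathway, averaged 64.7 ± 4.88 CPM in FSK3D and 26.2 ± 2.19 CPM in FSK4h (1.31 ± 0.076). All 3 were also higher than in vehicle, where their means were 33.8, 18.5 and 33.01 CPM. The whole list had a median of -0.20 for FSK4h against vehicle and 0.72 for FSK3D against vehicle.

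Around pyruvate, Pdk2 and Mpc1 rose and Pdk4 fell. Pdk2, a pyruvate dehydrogenase kinase, averaged 45.6 ± 4.20 CPM in FSK3D and 15.9 ± 1.14 CPM in FSK4h (1.53 ± 0.081), and Mpc1, a subunit of the mitochondrial pyruvate carrier, averaged 59.98 ± 3.12 CPM in FSK3D and 31.4 ± 2.44 CPM in FSK4h (0.94 ± 0.079). Pdk4, the kinase of fasting and of PPAR signalling, was at 166, 166 and 162 CPM in FSK3D, against 278, 316 and 296 CPM in FSK4h (-0.85 ± 0.056, edgeR adjusted p = 1.20e-14). At 1 day its mean was 96.3 CPM, near that of vehicle at 95.01 CPM, so its course was not a steady fall. Among respiratory subunits, Ndufa6 and Ndufv3 of complex I averaged 52.5 ± 1.32 CPM in FSK3D and 27.8 ± 1.81 CPM in FSK4h (0.92 ± 0.084) and 85.1 ± 10.9 CPM in FSK3D and 46.8 ± 5.52 CPM in FSK4h (0.87 ± 0.088). Ndufb4 averaged 3.76 ± 1.13 CPM in FSK3D and 2.27 ± 0.516 CPM in FSK4h (0.68 ± 0.23), a call that was lost without FSK3D S11. Atp5g1, a ring subunit of ATP synthase with near-identical paralogs, averaged 15.8 ± 0.756 CPM in FSK3D and 25.99 ± 0.841 CPM in FSK4h (-0.71 ± 0.085).

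Genes of glucose uptake and glycolysis went both ways, with 9 higher and 8 lower of 22 (median 0.11), beside 35% and 33.5% of all genes. The counts with library size alone were 13 higher and 6 lower (median 0.29). Slc2a4, the insulin-responsive transporter GLUT4, was at 145, 152 and 178 CPM in FSK3D, against 32.1, 45.7 and 40.1 CPM in FSK4h (2.02 ± 0.15, edgeR adjusted p = 1.96e-07). Slc2a1 had fallen by 2.14 on the same scale. In vehicle Slc2a4 was at 97.04 CPM, above its 4 h level and below its 3-day level. Aldoc, an aldolase, averaged 7.12 ± 1.07 CPM in FSK3D and 2.06 ± 0.569 CPM in FSK4h (1.77 ± 0.19), and Pfkm, the muscle form of phosphofructokinase, averaged 82.4 ± 8.49 CPM in FSK3D and 48.05 ± 1.14 CPM in FSK4h (0.78 ± 0.064).

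The regulators of mitochondrial genes did not share 1 direction. Of 12 PGC-1 and ERR genes tested 4 were higher and 4 lower (median 0.11), beside 35% and 33.5% of all genes. With library size alone 7 were higher. Ppargc1a, the PGC-1α coactivator of browning, was lower at 49.4, 50.8 and 47.7 CPM in FSK3D, against 62.5, 85.5 and 73.4 CPM in FSK4h (-0.58 ± 0.078, edgeR adjusted p = 1.83e-07). It had been at 18.3 CPM at 1 day and 31.6 CPM in vehicle. Pprc1, a growth-responsive relative, averaged 42.1 ± 1.98 CPM in FSK3D and 129 ± 2.90 CPM in FSK4h (-1.61 ± 0.053). Esrra, the receptor ERRα, averaged 58.3 ± 6.41 CPM in FSK3D and 37.5 ± 3.10 CPM in FSK4h (0.64 ± 0.074), and Tfb1m, a mitochondrial ribosomal RNA methyltransferase, averaged 8.03 ± 0.0683 CPM in FSK3D and 4.91 ± 0.375 CPM in FSK4h (0.71 ± 0.14). Esrrg was below 2 CPM in all 6 libraries (0.98 ± 0.33, edgeR adjusted p = 0.00849, lost without FSK4h S4 or FSK3D S12). The remaining members called, Ppara (higher) and Nrf1 and Gabpa (lower), were chosen after their values were seen.

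Mitochondrial ribosomal proteins had 30 higher and 7 lower of 77, beside 35% and 33.5% of all genes, with a median of 0.13. The 7 lower calls were 1 without FSK3D S10 and 4 without FSK3D S11 or FSK4h S5. With library size alone 54 were higher and 0 lower, so the size of this difference depends on the scaling. Mrpl44 averaged 17.4 ± 2.05 CPM in FSK3D and 11.5 ± 0.829 CPM in FSK4h (0.60 ± 0.10) and Mrpl1 averaged 41.5 ± 0.904 CPM in FSK3D and 27.8 ± 0.292 CPM in FSK4h (0.58 ± 0.069). The call of Mrps36, with under 1 CPM in every library of both groups, was lost in 6 of the 14 alternatives that tested it, and that of Mrpl21 (-0.36 ± 0.13) was lost with library size alone or without FSK3D S10.

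Most thermogenic genes were higher at 3 days than at 4 h, but Ucp1 was lower. Of 22 tested 15 were higher in FSK3D and 3 lower (median 0.87), beside 35% and 33.5% of all genes. Ucp1 (chromosome 8, 83290352 to 83298452, plus strand) was at 4.24, 6.10 and 5.41 CPM in FSK3D, against 8.77, 8.82 and 7.67 CPM in FSK4h. Every FSK3D library was below every FSK4h library (-0.69 ± 0.20, edgeR adjusted p = 0.00219). Its course was not a plateau, with 0.0753 CPM in vehicle, 8.42 at 4 h, 1.15 at 1 day and 5.25 at 3 days. Otop1, a proton channel abundant in brown fat, was at 4.45, 4.11 and 4.96 CPM in FSK3D, against 1.04, 0.971 and 0.432 CPM in FSK4h (2.45 ± 0.26, edgeR adjusted p = 2.84e-10). Cox8b, a muscle and brown fat isoform of a cytochrome c oxidase subunit, was at 8.77, 9.59 and 10.4 CPM in FSK3D, against 1.48, 1.94 and 2.16 CPM in FSK4h (2.38 ± 0.17). Cox7a1, another such subunit, averaged 12.6 ± 1.45 CPM in FSK3D and 3.23 ± 1.45 CPM in FSK4h (1.99 ± 0.18). The 3 lower members were Ucp1, Ppargc1a and, chosen after its values were seen, Zfp516 (-0.23 ± 0.049).

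**Figure D4:**
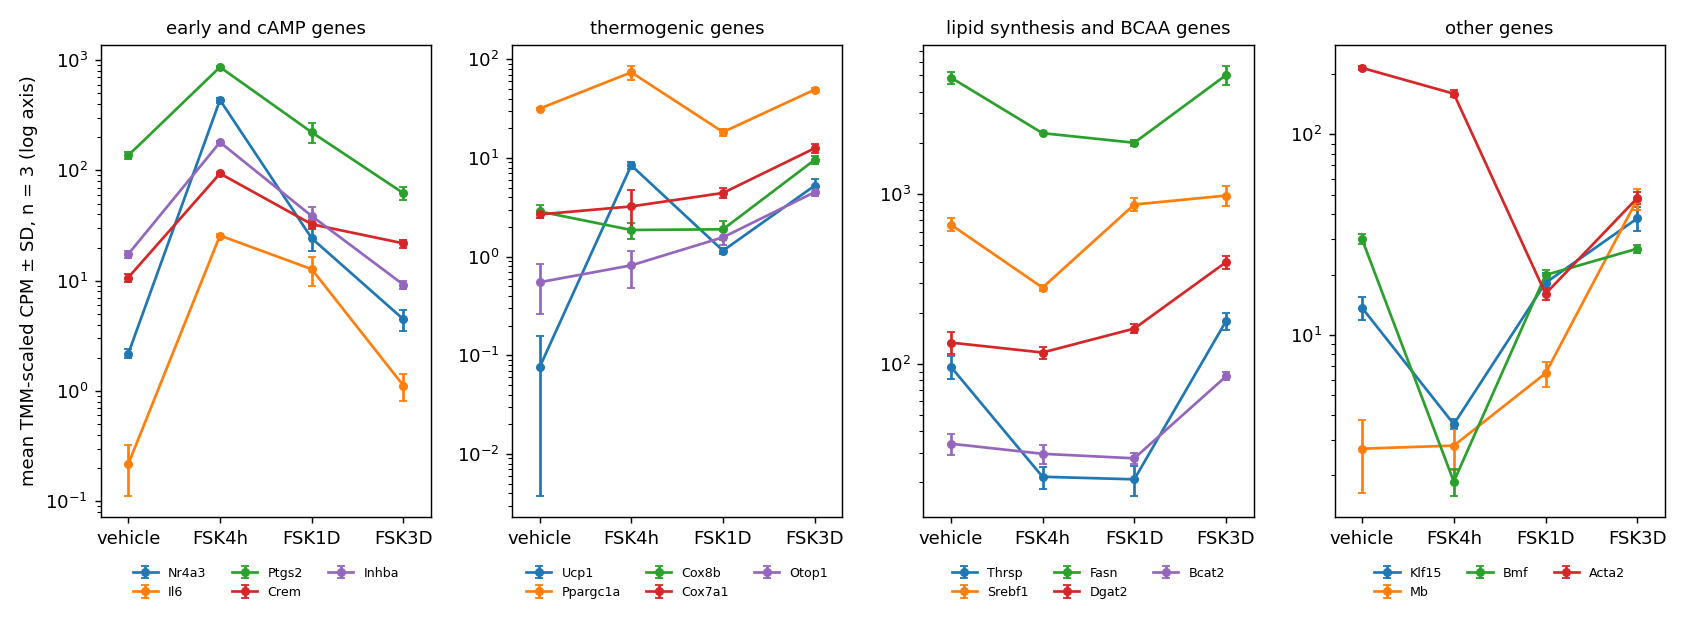
Mean level ± SD (n = 3) of 19 genes over vehicle, 4 h, 1 day and 3 days of forskolin, in TMM-scaled CPM on log axes, with lower error bars held at 95% of the mean. Early genes peak at 4 h and at 3 days lie above vehicle (Nr4a3, Il6, Crem) or below it (Ptgs2, Inhba), Ucp1 and Ppargc1a are lower at 1 day than at 4 h or 3 days, and Cox8b, Thrsp and Bcat2 rise between 1 and 3 days.

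Of 7 beige markers tested 4 were higher and 1 lower (median 0.45), beside 35% and 33.5% of all genes. Tnfrsf9, the receptor CD137, was at 8.08, 6.85 and 5.95 CPM in FSK3D, against 0.990, 0.849 and 1.33 CPM in FSK4h (2.71 ± 0.21, edgeR adjusted p = 1.87e-13), and its mean was 11.98 CPM at 1 day. The gene lies within the span of Camta1 on the other strand, which changed less (0.70 ± 0.15). P2rx5, a purinergic channel, averaged 8.12 ± 0.777 CPM in FSK3D and 3.31 ± 0.256 CPM in FSK4h (1.31 ± 0.14), and Slc27a1, a fatty acid transporter, averaged 135 ± 3.91 CPM in FSK3D and 73.9 ± 4.93 CPM in FSK4h (0.88 ± 0.086). Cited1, a transcriptional coactivator, had 8 counts in FSK3D and 273 in FSK4h, which is 3.69% of its 4 h level (0.995% to 9.71%). The members of this list thus differed in direction as well as size.

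For creatine and calcium cycling, proposed routes of heat production without Ucp1, 5 of 10 genes tested were lower and 2 higher (median -0.19). These counts stand beside 33.5% and 35% of all genes, and 3 were lower with library size alone. Ckb, a creatine kinase, averaged 1.16 ± 0.594 CPM in FSK3D and 4.33 ± 0.518 CPM in FSK4h (-1.80 ± 0.29), and Atp2a2, the calcium pump SERCA2, averaged 485 ± 9.48 CPM in FSK3D and 855 ± 5.01 CPM in FSK4h (-0.82 ± 0.039). Slc6a8, the creatine transporter, averaged 128 ± 11.2 CPM in FSK3D and 187 ± 4.99 CPM in FSK4h (-0.55 ± 0.055). Atp2a3, the pump SERCA3, rose, at 28.02, 25.3 and 32.6 CPM in FSK3D, against 4.45, 6.39 and 4.57 CPM in FSK4h (2.51 ± 0.13, edgeR adjusted p = 1.45e-14). Both SERCA genes were thus called, in opposite directions.

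Genes of the mature adipocyte were higher, 21 of 24 in FSK3D, with 1 lower (median 0.60), beside 35% and 33.5% of all genes. The 21 include Lep, whose call rests on 6 counts in FSK3D and 0 in FSK4h. The list shares members with those of lipolysis and synthesis below. Thrsp, a lipogenic protein known as Spot 14, was at 164, 168 and 203 CPM in FSK3D, against 18.01, 22.7 and 24.1 CPM in FSK4h (3.06 ± 0.18, edgeR adjusted p = 2.84e-08). At 1 day it was still at 20.9 CPM, beside 96.2 CPM in vehicle, so the rise came after the first day. Plin4, a lipid droplet coat protein, was slightly lower, averaging 1384 ± 59.2 CPM in FSK3D and 1602 ± 25.95 CPM in FSK4h (-0.21 ± 0.044), a call that was lost with library size alone. Irs3, an insulin receptor substrate found in rodent fat, was at 9.99, 11.3 and 14.6 CPM in FSK3D, against 1.04, 1.82 and 1.22 CPM in FSK4h (3.18 ± 0.18), and at 10.2 CPM in vehicle.

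Enzymes of fatty acid and triglyceride synthesis had 18 higher and 10 lower of 30 (median 0.48), beside 35% and 33.5% of all genes. Srebf1, the master factor of lipogenesis, was at 908, 902 and 1128 CPM in FSK3D, against 268, 291 and 284 CPM in FSK4h (1.80 ± 0.098, edgeR adjusted p = 1.79e-09). Fasn, fatty acid synthase, was at 4673, 4610.2 and 5768 CPM in FSK3D, against 2273, 2328 and 2249.6 CPM in FSK4h (1.14 ± 0.072, edgeR adjusted p = 5.37e-11). In both genes FSK3D S12 was the highest library and no library overlapped the other group. Fasn was at 4856 CPM in vehicle, so the 3-day level was close to it and the 4 h level was low. The acyltransferases of the last step of triglyceride synthesis went opposite ways, since Dgat2 averaged 397 ± 36.1 CPM in FSK3D and 117 ± 9.29 CPM in FSK4h (1.77 ± 0.10), whereas Dgat1 averaged 447 ± 13.6 CPM in FSK3D and 902 ± 18.4 CPM in FSK4h (-1.01 ± 0.047).

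Among genes of lipolysis and lipid droplets, 14 were higher and 4 lower of 20 (median 0.60), beside 35% and 33.5% of all genes. G0s2 and Hilpda, both inhibitors of the lipase ATGL, were called in opposite directions. G0s2 was at 133, 142 and 163 CPM in FSK3D, against 36.9, 37.4 and 33.3 CPM in FSK4h (2.03 ± 0.11, edgeR adjusted p = 8.83e-10). Hilpda, also induced by hypoxia, was at 9.71, 9.94 and 11.8 CPM in FSK3D, against 124, 144 and 116 CPM in FSK4h (-3.60 ± 0.13, edgeR adjusted p = 1.43e-14). Plin5, the droplet protein of oxidative tissues, averaged 16.1 ± 0.466 CPM in FSK3D and 4.34 ± 0.472 CPM in FSK4h (1.89 ± 0.17). Adora1, a receptor that lowers cAMP in fat cells, averaged 27.4 ± 4.14 CPM in FSK3D and 10.4 ± 0.803 CPM in FSK4h (1.41 ± 0.092), near its vehicle mean of 27.9 CPM.

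Genes of cholesterol synthesis and uptake were mostly lower, with 20 lower and 2 higher of 25 (median -0.84), and 17 lower and 4 higher with library size alone. Hsd17b7, a reductase late in the pathway, averaged 74.4 ± 2.37 CPM in FSK3D and 273 ± 8.21 CPM in FSK4h (-1.87 ± 0.058), and Sqle, squalene epoxidase, averaged 100.2 ± 2.07 CPM in FSK3D and 279.5 ± 6.96 CPM in FSK4h (-1.48 ± 0.05). Sqle was also below vehicle at 3 days, where its mean was 177 CPM. The members that were higher were Dhcr7 (0.48 ± 0.081), of the last step, and Acat2 (0.33 ± 0.064), the acetoacetyl-CoA thiolase, chosen after its values were seen.

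The 10 genes with the highest fold changes by the same rule were Clec14a, Mb, Bmf, Ccdc144b, Sh3tc2, Klf15, Irs3, Tppp, Aspg and Neurl1b. Clec14a (chromosome 12, 58264720 to 58269290, minus strand), a lectin-like receptor known from endothelial cells, had 397 counts in FSK3D and 20 in FSK4h, which is 25-fold higher with an exact binomial 95% interval of 13.3 to 52.8. It was at 5.63, 5.07 and 5.88 CPM in FSK3D, against 0.110, 0.404 and 0.216 CPM in FSK4h. Of 10 endothelial markers 5 were tested and 1 was higher, Egfl7 (0.66 ± 0.17), which overlaps Agpat2. The summed level of the 10 was 14.7 to 14.98 CPM in FSK3D and 10.6 to 12.7 CPM in FSK4h. Of the defining markers, Cdh5 and Emcn had 0 counts in FSK3D, Emcn also had 0 in FSK4h, and Pecam1 averaged 0.299 CPM in FSK3D and 0.471 CPM in FSK4h. Cldn5 averaged 0.053 CPM in FSK3D and 0.124 CPM in FSK4h. Kdr and Tek were detected in both groups, Kdr at 5.97 CPM in FSK3D and 5.01 CPM in FSK4h, and Tek at 0.706 and 0.436 CPM. Their part in the difference of Clec14a was not tested.

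Mb (chromosome 15, 77015487 to 77050670, minus strand), myoglobin, was at 41.2, 49.1 and 52.2 CPM in FSK3D, against 2.64, 3.56 and 2.23 CPM in FSK4h (4.09 ± 0.20, edgeR adjusted p = 2.24e-12). It was near its 4 h level in vehicle (2.71 CPM) and at 6.45 CPM at 1 day. Mb overlaps Apol6 on the other strand, which averaged 94.8 ± 4.45 CPM in FSK3D and 24.2 ± 2.56 CPM in FSK4h (1.98 ± 0.12), and since the sources used here do not say how strand was handled, reads of the overlap cannot be assigned. The 12 skeletal muscle markers summed to 59.0 to 71.8 CPM in FSK3D and 8.72 to 11.4 CPM in FSK4h, and Mb made up most of the FSK3D sum. Only 4 of them were tested, of which Mb and Des, the intermediate filament protein desmin (1.96 ± 0.16), were higher. Myf5 and Ckm had 0 counts in FSK3D, and Myod1 and Myog had 2 and 4 counts there and 0 each in FSK4h. Acta1 averaged 3.53 CPM in FSK3D and 3.27 CPM in FSK4h, and Tnnt3 had 7 counts in FSK3D and 4 in FSK4h. The part of such markers in the difference of Mb was not tested.

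Klf15 (chromosome 6, 90462576 to 90475238, plus strand), a zinc finger factor known for its part in amino acid breakdown in muscle and liver, was at 33.00, 38.2 and 43.2 CPM in FSK3D, against 3.41, 3.56 and 3.82 CPM in FSK4h (3.41 ± 0.13, edgeR adjusted p = 1.98e-20). The vehicle mean was 13.7 CPM, so Klf15 was below vehicle at 4 h and above it at 3 days (-1.93 ± 0.14 and 1.48 ± 0.11). Bmf, which promotes apoptosis by binding BCL2 proteins, was at 25.5, 28.03 and 27.3 CPM in FSK3D, against 1.54, 2.06 and 1.98 CPM in FSK4h (3.87 ± 0.12, edgeR adjusted p = 1.25e-23). Here the 3-day level was close to the vehicle mean of 30.02 CPM, and it was the 4 h level that stood apart. Neurl1b, a ubiquitin ligase of Notch signalling, averaged 24.3 ± 0.805 CPM in FSK3D and 2.89 ± 0.466 CPM in FSK4h (3.08 ± 0.14), with 15.8 CPM in vehicle. Tppp, a protein that promotes tubulin polymerization, averaged 11.02 ± 1.01 CPM in FSK3D and 1.23 ± 0.167 CPM in FSK4h (3.17 ± 0.19), and Aspg, an asparaginase, averaged 9.32 ± 2.50 CPM in FSK3D and 1.10 ± 0.322 CPM in FSK4h (3.11 ± 0.24). Ccdc144b (3.73 ± 0.26) and Sh3tc2 (3.41 ± 0.34), the gene of a hereditary neuropathy in humans, were both under 1 CPM in every FSK4h library.

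Ribosome biogenesis genes were lower throughout. Of 31 ribosome biogenesis genes 31 were lower in FSK3D and 0 higher, 25 of them by at least 2-fold (median -1.22). These stand beside 33.5% and 7.95% of all genes tested. The count of lower members was 31 with library size alone too. Nop58, a core protein of small nucleolar particles, was at 57.1, 48.3 and 46.2 CPM in FSK3D, against 173, 174 and 170.5 CPM in FSK4h (-1.77 ± 0.058, edgeR adjusted p = 2.17e-23). Rrp1b, a nucleolar processing factor, averaged 17.04 ± 0.737 CPM in FSK3D and 67.02 ± 3.72 CPM in FSK4h (-1.98 ± 0.077), and Rrp12, a factor of ribosome export, averaged 27.6 ± 4.32 CPM in FSK3D and 96.8 ± 5.08 CPM in FSK4h (-1.79 ± 0.075). The list median was 0.70 for FSK4h against vehicle and -0.55 for FSK3D against vehicle, so the 3-day median was below vehicle as well as below 4 h.

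Cytosolic ribosomal proteins had 39 lower and 1 higher of 41 (median -0.49, and 32 lower with library size alone). Rps2 was at 175, 159 and 179 CPM in FSK3D, against 346, 345 and 347 CPM in FSK4h (-1.01 ± 0.044), Rplp0 averaged 636 ± 47.02 CPM in FSK3D and 1131 ± 35.6 CPM in FSK4h (-0.83 ± 0.046), and Rpl12 averaged 71.6 ± 0.689 CPM in FSK3D and 131 ± 1.82 CPM in FSK4h (-0.87 ± 0.048). Rpl22 was the member that was higher (0.27 ± 0.055). Ribosomal protein genes have many processed pseudogenes, and the sources used here do not say how reads that match several places were counted.

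Cell cycle genes were lower as a group, 30 of 32 in FSK3D, with 1 higher (median -0.71). Rrm2, the ribonucleotide reductase subunit of S phase, was at 145, 146 and 121 CPM in FSK3D, against 397, 426 and 424 CPM in FSK4h (-1.60 ± 0.071, edgeR adjusted p = 3.19e-14). Mcm5, a part of the replicative helicase, averaged 93.6 ± 5.71 CPM in FSK3D and 267 ± 13.5 CPM in FSK4h (-1.52 ± 0.052), and Ccnd1, cyclin D1, averaged 10.8 ± 1.37 CPM in FSK3D and 30.5 ± 5.33 CPM in FSK4h (-1.49 ± 0.10). Cdkn2c, the CDK4 and CDK6 inhibitor p18, was the member that was higher, at 172, 164 and 178 CPM in FSK3D, against 65.6, 77.3 and 70.2 CPM in FSK4h (1.28 ± 0.063). The list median was -0.76 for FSK3D against vehicle and close to 0 for FSK4h against vehicle (-0.0098).

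Contractile genes were mostly lower. Of 23 smooth muscle and actin genes 19 were lower in FSK3D and 4 higher (median -0.99). Acta2, smooth muscle actin, was at 48.3, 51.3 and 45.1 CPM in FSK3D, against 152, 161 and 165 CPM in FSK4h (-1.73 ± 0.056, edgeR adjusted p = 1.10e-23). Its course was not monotonic, since the mean was 214 CPM in vehicle and 16.1 CPM at 1 day, below the 3-day level. Tagln, transgelin, averaged 6.23 ± 0.716 CPM in FSK3D and 27.5 ± 1.80 CPM in FSK4h (-2.16 ± 0.11). Actg2, a near-identical relative of Acta2 whose reads may be shared with it, had 4 counts in FSK3D and 49 in FSK4h. Myocd, a coactivator of smooth muscle genes, had 4 counts in FSK3D, all in library S12, and 36 in FSK4h. Both were too low to be tested in 4 of the 15 alternatives. Lmod1, an actin nucleator of smooth muscle, and Des rose, and Lmod1 was at 2.61, 1.23 and 1.37 CPM in FSK3D, against 0.220, 0.445 and 0.288 CPM in FSK4h (2.51 ± 0.37).

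Collagen and matrix genes had no shared direction, with 14 higher and 17 lower of 38 (median -0.08), beside 35% and 33.5% of all genes. With library size alone 19 were higher and 10 lower, and the median turned to 0.098. Tnc (chromosome 4, 63959785 to 64047015, minus strand), tenascin C, was at 76.3, 59.2 and 69.8 CPM in FSK3D, against 1202, 1058 and 1115 CPM in FSK4h (-4.03 ± 0.14, edgeR adjusted p = 2.08e-10), and at 193 CPM in vehicle. Timp1, an inhibitor of matrix metalloproteases, averaged 33.5 ± 1.64 CPM in FSK3D and 203 ± 12.95 CPM in FSK4h (-2.60 ± 0.074). Col14a1, a fibril-associated collagen, was at 13.5, 14.3 and 11.6 CPM in FSK3D, against 2.17, 2.75 and 2.27 CPM in FSK4h (2.46 ± 0.19), with 2.73 CPM at 1 day and 2.67 CPM in vehicle. The 4 h and 1-day means were thus near vehicle and the 3-day mean above it.

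Progenitor markers were evenly divided, 6 higher and 6 lower of 18, shares near the 35% and 33.5% of all genes. The median was -0.098, and 0.080 with library size alone. Zfp423, a factor that commits cells to the fat lineage, averaged 46.7 ± 2.20 CPM in FSK3D and 19.1 ± 1.33 CPM in FSK4h (1.30 ± 0.072). Ly6a, the surface protein Sca-1, was at 259, 271 and 212 CPM in FSK3D, against 158, 103 and 149.7 CPM in FSK4h (0.85 ± 0.17, edgeR adjusted p = 0.00104), with a spread that FSK4h S5 widened. Pdgfrb, a growth factor receptor of mural and progenitor cells, averaged 244 ± 11.4 CPM in FSK3D and 154 ± 13.7 CPM in FSK4h (0.67 ± 0.057). Gata2, which holds progenitors back from differentiation, averaged 2.52 ± 0.854 CPM in FSK3D and 11.9 ± 0.628 CPM in FSK4h (-2.22 ± 0.18). The summed level of the 20 markers was 1143 to 1228 CPM in FSK3D and 1154 to 1263 CPM in FSK4h, ranges that overlap.

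Interferon-stimulated genes were higher where they were called, 16 of 27 in FSK3D, with 0 lower (median 0.80), beside 35% and 33.5% of all genes. The count depends on single libraries. It was 9 without FSK4h S5, 12 without FSK3D S10 or S11 and 19 without FSK3D S12. Rtp4, a transporter protein induced by interferon, was at 38.7, 60.2 and 31.1 CPM in FSK3D, against 14.7, 9.67 and 11.9 CPM in FSK4h (1.79 ± 0.39, edgeR adjusted p = 0.00178). Mx2, a dynamin-like antiviral protein, was at 0.938, 2.60 and 1.94 CPM in FSK3D, against 0.605, 0.162 and 0.180 CPM in FSK4h (2.36 ± 0.58, and 3.33 without FSK4h S4). The highest of the Rtp4 values belongs to FSK3D S11 and the lowest to FSK4h S5. Oasl2, an antiviral 2-5A synthetase homolog, showed the same order (1.59 ± 0.49, edgeR adjusted p = 0.0142), and its call was lost without FSK4h S5 or without FSK3D S11. The list median was -0.84 for FSK4h against vehicle and close to 0 for FSK3D against vehicle (0.0023).

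Clock genes moved in both directions, 8 higher and 9 lower of 19, beside 35% and 33.5% of all genes. The median was 0.012, and -0.0034 with RLE size factors. The counts were 10 higher and 8 lower with library size alone (median 0.19). The repressors Nfil3 and Bhlhe40 were lower, averaging 23.9 ± 3.34 CPM in FSK3D and 86.5 ± 6.57 CPM in FSK4h (-1.84 ± 0.094) and 82.4 ± 9.02 CPM in FSK3D and 241 ± 34.5 CPM in FSK4h (-1.54 ± 0.12). Ciart, a repressor of the clock, averaged 5.46 ± 0.434 CPM in FSK3D and 19.4 ± 3.41 CPM in FSK4h (-1.82 ± 0.14). The sources used here do not give the hour of day at which each group was harvested.

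Macrophage and leukocyte markers were low. Of 12 only 4 were tested, of which 2 were lower in FSK3D, Cd14 (-1.58 ± 0.21) and Csf1r (-0.65 ± 0.26, edgeR adjusted p = 0.0286), and 0 higher. The call of Csf1r was lost in 5 of 15 alternatives. The sum of the 12 markers was 6.71 to 7.81 CPM in FSK3D and 10.7 to 12.9 CPM in FSK4h. Ptprc and Adgre1, which define leukocytes and macrophages, had 0 counts each in FSK3D, and 4 and 0 counts in FSK4h. Cd68 was detected in both groups, at 1.91 CPM in FSK3D and 2.44 CPM in FSK4h. Lyz2 had 10 counts in FSK3D and 29 in FSK4h, and Itgam 7 and 0.

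The other groups place these differences. For genes at least 2-fold higher in FSK3D than in FSK4h, the vehicle level lay nearer to FSK3D in 929 of 1518 (61.2%), and for those at least 2-fold lower in 693 of 1147 (60.4%). For most of these genes the 4 h level was thus the one further from vehicle. The 1-day level lay between the 4 h and the 3-day levels in 1251 of the higher genes (82.4%) and 914 of the lower ones (79.7%). Among higher genes it lay beyond the 3-day level in 120 and beyond the 4 h level in 147, and among lower ones in 126 and 107. In Ucp1 and Ppargc1a, which changed by less than 2-fold, it was below both. These positions use group means and no test.

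Rosiglitazone for 3 days against vehicle shares no library with this comparison. Across the 14421 genes the log2 fold changes of the 2 comparisons had Pearson's r of 0.408 and Spearman's rho of 0.442, as a description over genes, which are not independent replicates. In Rosi3D against vehicle 60.6% of genes tested were called. Of the 1518 genes at least 2-fold higher in FSK3D, 760 (50.1%) were higher in Rosi3D than in vehicle and 153 (10.1%) lower, beside 28.6% and 32% of all genes. Of the 1147 lower genes 736 (64.2%) were lower in Rosi3D and 100 (8.72%) higher. The 760 genes make up 18.4% of those higher in Rosi3D, and the 736 genes 15.9% of those lower.

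**Figure D5:**
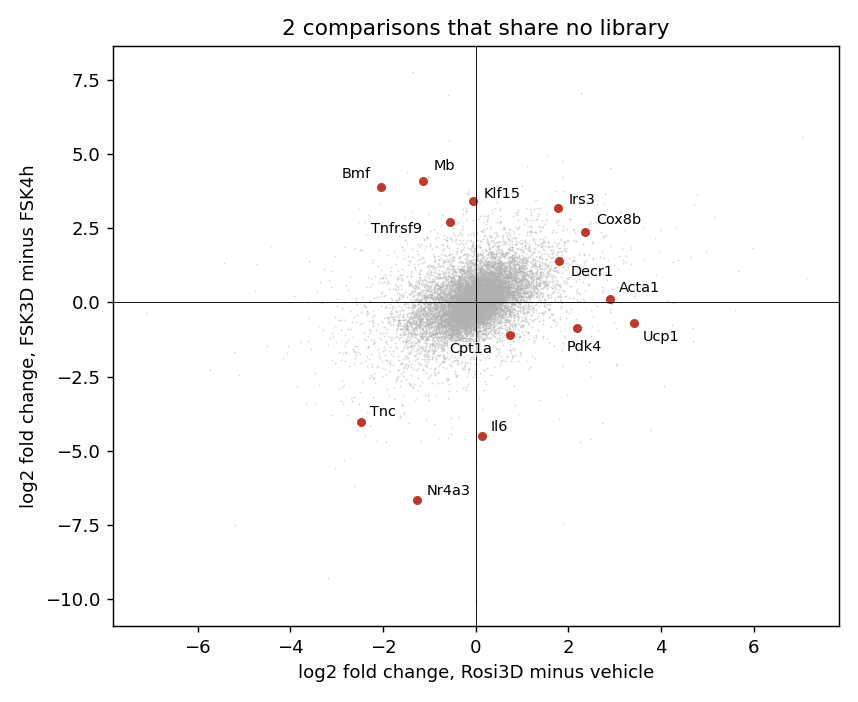
Log2 fold change of FSK3D against FSK4h (vertical) and of Rosi3D against vehicle (horizontal) for 14421 genes, with 14 genes marked in red, of which Acta1 was chosen after its values were seen. The cloud is tilted (Pearson's r 0.408), with Decr1, Irs3 and Cox8b high on both axes, Mb and Bmf high on the vertical and low on the horizontal, and Ucp1, Pdk4 and Cpt1a the reverse.

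Several mitochondrial and fat cell genes moved the same way in both comparisons. Decr1 differed by 1.38 ± 0.058 in FSK3D against FSK4h and by 1.80 ± 0.057 in Rosi3D against vehicle, and Cox8b by 2.38 ± 0.17 and 2.36 ± 0.15. Irs3 differed by 3.18 ± 0.18 and 1.77 ± 0.13, and Bcat2 by 1.52 ± 0.091 and 1.65 ± 0.089. Tnc fell in both (-4.03 ± 0.14 and -2.48 ± 0.14), as did Acta2 (-1.73 ± 0.056 and -2.51 ± 0.056). Against vehicle, however, Irs3 did not pass the test in FSK3D (0.25 ± 0.13, edgeR adjusted p = 0.116) and was lower in FSK4h (-2.93 ± 0.18). Other genes parted. Mb and Bmf, higher in FSK3D, were lower in Rosi3D than in vehicle (-1.13 ± 0.28, edgeR adjusted p = 0.00209, and -2.05 ± 0.10, edgeR adjusted p = 1.30e-18), and Klf15 did not pass the test there (-0.066 ± 0.12). Ucp1, Pdk4 and Cpt1a, lower in FSK3D than in FSK4h, were higher with rosiglitazone (3.42 ± 0.48, 2.19 ± 0.058 and 0.75 ± 0.053). The baselines of these comparisons differ, being 4 h of forskolin in one and vehicle in the other. Against vehicle, Ucp1 and Pdk4 were higher in FSK3D as well (5.99 ± 0.37 and 0.79 ± 0.057). Mb and Klf15 were also higher in FSK3D than in vehicle (4.15 ± 0.20 and 1.48 ± 0.11), and Bmf did not pass that test (-0.16 ± 0.091). Of the 31 ribosome biogenesis genes 27 were lower in Rosi3D, and of the 32 cell cycle genes 29.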

How the data were processed

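The deposited data are 1 table of raw read counts (whole numbers, made by the authors) with 24421 gene symbols as rows, 4584 of them without a count in any library. The submitters' processing notes name fastp, STAR, featureCounts and GRCm38 (mm10). Versions, annotation, and how strand, read pairs and multiply mapped reads were treated are not given there. Low counts were mostly even, as when both mates of a pair are counted, so intervals of low-count ratios use counts divided by 2.

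Counts were filtered (filterByExpr), TMM-scaled and fitted in R 4.3.3 by edgeR 4.0.16 (quasi-likelihood, robust, two-sided) over the 15 libraries of 5 groups, leaving 10 residual degrees of freedom, with Benjamini-Hochberg adjustment over 14421 genes. The contrast is FSK3D minus FSK4h, and SE is the size of the log2 fold change divided by the square root of F. The common biological coefficient of variation was 5.97%. Between pairs of libraries of a group, chi-square per degree of freedom was 3.12 to 11.2 within FSK3D and 3.59 to 7.11 within FSK4h, and no library was dropped. These values use undivided counts, and counting both mates of a pair would raise them, so they overstate the excess over sampling noise to that extent. DESeq2 1.42.0 was an alternative.

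The genes named are the 10 highest and 10 lowest fold changes under the rule in the text, the 3 greatest called changes in the main direction of each of 34 lists with the 1 greatest in the other, and 12 preset genes, 138 in all. Of these 56 overlap another gene in GENCODE vM21, the source of positions, and are uncertain to that extent. Members and lists were chosen with earlier results of these data known. Some genes that the rule names are not reported here. Scripts were tested on simulated counts.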

Additional observations from a re-analysis of the deposited data

How the results depend on the processing

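Of 138 named genes 133 were tested under all 15 alternatives (other scaling, DESeq2, 2 other filters, the 6 libraries alone, halved or thinned counts, Rn45s left out, and each of the 6 libraries left out). Of these 127 kept direction and call in all 15, and Ndufb4, Mrpl21, Esrrg, Plin4, Oasl2 and Csf1r lost the call in at least 1. The other 5 were not tested in every alternative: Lep, Actg2 and Myocd were missing from 4, and Mrps36 and Rn45s from 1. Among the alternatives that tested them, Lep and Mrps36 lost the call in at least 1 and the other 3 kept it. No named gene reversed where it was tested. With library size alone 54 mitochondrial ribosomal protein genes were higher (30 with TMM), 7 PGC-1 and ERR regulators were higher (4), 3 creatine and calcium genes were lower (5), 10 collagen and matrix genes were lower (17), 3 endothelial markers were higher (1), 9 hypoxia targets were higher (5) and 4 cholesterol genes were higher (2). The cause was not tested. Leaving out 1 library gave 9 to 19 higher interferon-stimulated genes (16 with all, and 9 without FSK4h S5). The total of calls ran from 9350 to 9518 on leaving out 1 library, against 9881, and DESeq2 called 4831 higher and 4912 lower. No paired analysis was possible because the columns carry running library numbers and no replicate numbers. The least deep library, FSK3D S11 with 14056200 counts, limits genes with few counts, and thinning all libraries to it left 9037 of the 9881 calls.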
